A study of Mus musculus with 30 samples.

Results

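Laminins are secreted trimers of an alpha, a beta and a gamma chain that form the sheet-like core of basement membranes, and integrins are paired alpha and beta receptors through which cells hold on to that matrix. The genes described here are the protein-coding genes whose symbols name a laminin chain (Lama, Lamb, Lamc) or an integrin chain (Itga, Itgb). They number 37 of 32386 genes: 5 laminin alpha, 3 laminin beta, 3 laminin gamma, 18 integrin alpha and 8 integrin beta chains. Members were found by symbol, after the transcript counts of each library had been summed to genes.

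The study sorted mesenchymal populations from the lamina propria of the small intestine (SI) and colon of untreated C57BL6/Nrj mice aged 8 to 10 weeks, with Peyer's patches, muscularis externa and epithelium removed. Each of the 10 populations has 3 libraries, made from cells of 3 individual mice by the labels, with whole-transcriptome amplification and Ovation Ultralow V2 and quantified by kallisto. All gates left out dead, Lineage, CD31+, BP3+, EpCAM+ and NCAMhi cells. Pericytes of both tissues were sorted as PDGFRa-ESAM-1+PDPN- cells and smooth muscle cells (SMC) of the SI as PDGFRa-ESAM-1+PDPN+ cells; no colon SMC were sorted. Among SI fibroblasts (FB), CD34+ FB (ESAM-1-PDGFRaintCD34+) hold both Igfbp5+ FB and CD81+ FB, Fgfr2+ FB are ESAM-1-PDGFRaintCD34-, and PDGFRahi FB are ESAM-1-PDGFRahiCD34-. Colon FB were sorted without a PDGFRa gate, as CD81+ FB (ESAM-1-PDPNintCD34+CD90-), CD90+ FB (ESAM-1-CD34+PDPNhiCD90+), Fgfr2+ FB (ESAM-1-PDPNhiCD34+CD90-) and PDGFRahi FB (ESAM-1-PDPN+CD34-). FB of the same name were therefore gated differently in the 2 tissues, and Fgfr2+ FB were CD34- in the SI and CD34+ in the colon. Library totals ran from 2245052 to 19096945 estimated counts (median 9601683), with the lowest in SI Fgfr2+ FB replicate 3.

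Marker levels, as CPM (counts scaled to library size with TMM factors), follow most of the sort names. The 8 pericyte markers sum to 54858, 36209 and 45652 CPM in SI pericytes and 40172, 55832 and 34691 in colon pericytes, with Rgs5 at the top, against 4812, 4337 and 7991 in SI SMC. FB libraries are lower still for the most part, but SI CD34+ FB hold 4160.1, 4409 and 3755 CPM, nearly all of it Rgs5 (3869, 4085 and 3445), and SI PDGFRahi FB hold 1589, 1662 and 2100.3 CPM of Abcc9. The 8 SMC markers, Myh11 foremost, sum to 22644, 18634 and 21997 CPM in SI SMC, 5827, 4158 and 4162 in SI pericytes and 10976, 12272 and 12487 in colon pericytes. Colon pericytes therefore carry more of the SMC list than SI pericytes do in every library. The 6 FB markers sum to 2562, 2552 and 1978 CPM in SI pericytes, 1461, 1715 and 1675 in colon pericytes and 5146, 5291 and 9342 in SI SMC, below every FB library, of which SI Fgfr2+ FB are lowest at 14824, 12099 and 12446.

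FB subset markers stand mostly where the names place them. Pdgfra is 6206, 6852 and 6489.7 CPM in SI PDGFRahi FB and 2388, 2397 and 2545 in colon PDGFRahi FB, above all other FB. Fgfr2 is 1468, 1981 and 1487 CPM in SI Fgfr2+ FB and 503, 459 and 457 in colon Fgfr2+ FB, where CD90+ FB are close to it at 324, 441 and 333. Igfbp5 reaches 942, 1149 and 1182 CPM in SI CD34+ FB, Cd34 679.7, 648 and 558 in the same libraries, and Cd81 388, 456 and 273 in colon CD81+ FB. Against the sort name, Thy1, the gene of CD90, is 119.5, 425 and 118 CPM in SI pericytes beside 255, 175 and 159 in colon CD90+ FB. Among cells the gates should remove, endothelial markers (7 genes, Pecam1 at the top, Cldn5 at 0 in 8 of 10 populations) sum to 183, 178 and 114 CPM in SI pericytes and 58.4, 62.9 and 194 in SI SMC. Mesothelium was, by the study's account, taken off with the muscularis externa and not by a gate. Its markers (4 genes, mostly Wt1) sum to 9.85, 8.08 and 1.11 CPM in SI pericytes and 0.312, 17 and 2.83 in colon CD81+ FB. Of the markers of interstitial cells of Cajal (Kit and Ano1), Ano1 is 1093, 547 and 694 CPM in SI pericytes and 722, 854 and 591 in colon pericytes, and Kit 7.1, 8.52 and 43.4 in SI PDGFRahi FB. SI SMC replicate 3 stands apart from the other 2 SMC libraries, with a TMM factor of 0.681 against 1.09 and 1.11, and with more FB and endothelial marker RNA.

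By background, the alpha chain gives each laminin its name and its main receptor contacts: alpha 2 is known from muscle, alpha 4 and alpha 5 from vessel walls, and alpha 1 and alpha 5 from beneath epithelia. Laminin-binding integrins carry alpha 3, alpha 6 or alpha 7, collagen-binding ones alpha 1, alpha 2, alpha 10 or alpha 11, and receptors of fibronectin and other ligands with an RGD motif alpha 5, alpha 8 or alpha V. In the gut wall, such contacts anchor epithelium, vessels and muscle to the basement membranes that mesenchymal cells help to build.

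Differences were tested over 17564 genes with edgeR's quasi-likelihood test in a single model of the 10 populations, and p-values were adjusted over all tested genes by the Benjamini-Hochberg method. A gene is called when its log2 fold change is beyond 1.5 in either direction and its adjusted p is below 0.05; each ± beside a log2 fold change is a standard error. The p-values rest on the spread between libraries. The labels give 3 individual mice and do not say which libraries share a mouse. The model treats all 30 libraries as independent, although by the study's account populations were sorted from the same mice. In comparisons with FB, the pericytes or SMC are set against the mean, on the log scale, of the FB populations of that tissue. Of the 37 members, 36 were tested; Itgax, with 1 count over all 30 libraries, was not. At least 1 of 11 comparisons called 23 members by edgeR, and 13 were called by it in none; unless DESeq2 is named, a call is edgeR's. Where members at an unadjusted p below 0.05 are counted, the like share of all tested genes was not counted. Such counts therefore say nothing particular to the members. In a bulk library, fewer cells with a transcript and less of it per cell cannot be told apart.

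**Figure D1:**
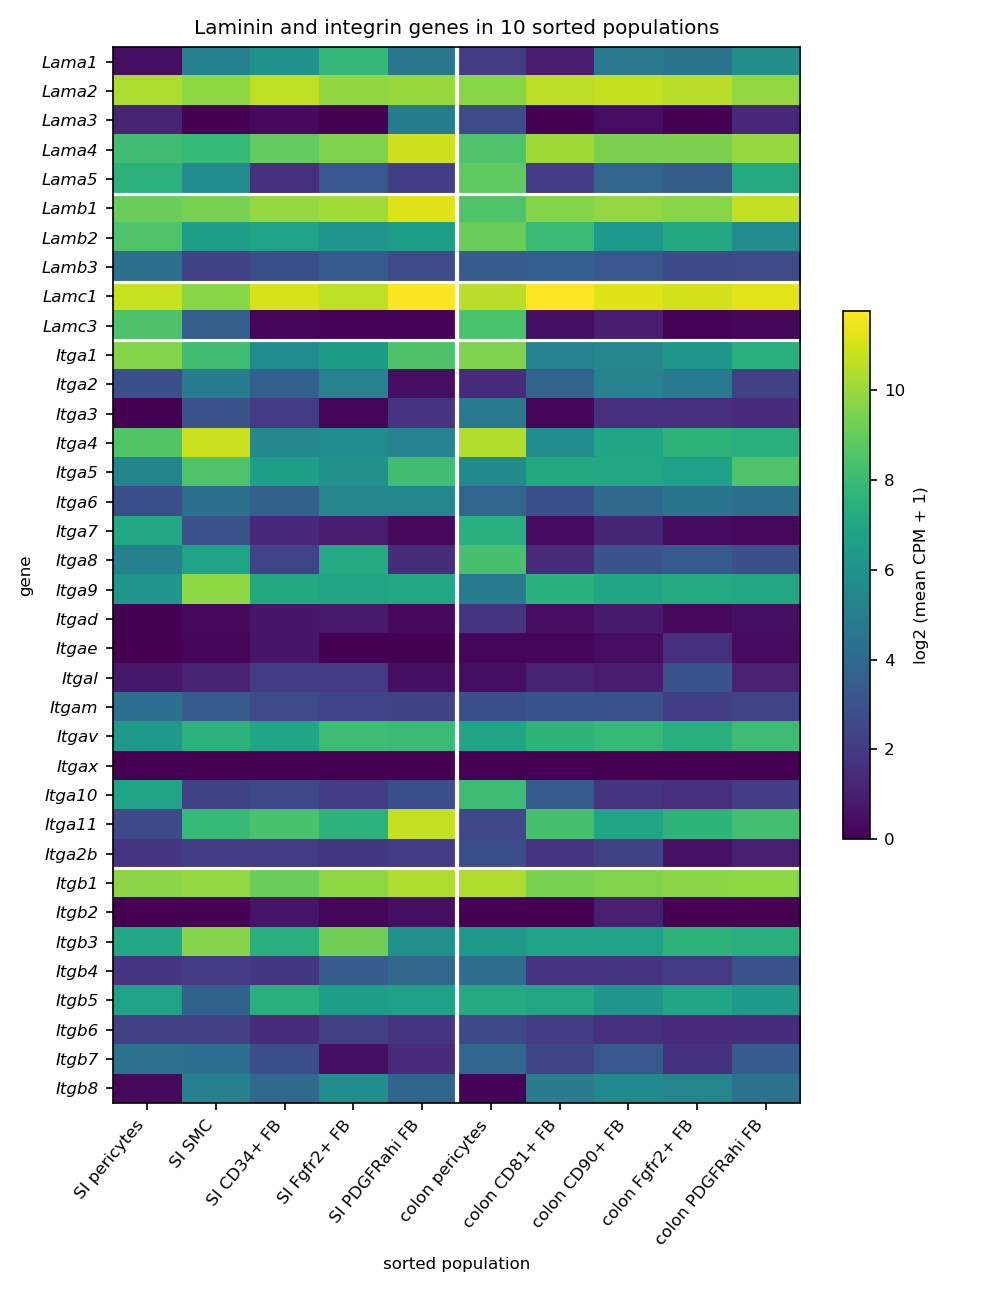
Mean level of members (vertical axis) in the 10 populations (horizontal axis, SI left and colon right of the white line), as log2 of mean CPM plus 1 over 3 libraries. Lamc3 is bright in pericytes of both tissues (352 and 345 CPM) and dark in FB, Itga11 the reverse (5.11 and 4.65 CPM in pericytes, 1675 in SI PDGFRahi FB).

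A laminin core of Lama2, Lama4, Lamb1 and Lamc1 is present in every population. Lamc1, the widely used gamma chain, spans 507 to 4087 CPM (median 2095) over the 30 libraries, and Lama2, the alpha chain known from muscle and nerve, 675 to 2062 CPM (median 1038). Lamb1, which has the largest share of beta chain TPM in 8 of 10 populations, spans 301 to 2517 CPM (median 899). No comparison called any of these 3. Per length, as TPM (counts over transcript length, scaled to a fixed total) with the share each chain holds of its family, Lama2 and Lama4 make up most alpha chain RNA in all 10 populations. Lama4, a chain of vessels and of interstitial matrix, holds 77.3 ± 2.75% (mean ± SD) of alpha chain TPM in SI PDGFRahi FB and 57.3 ± 1.97% in colon PDGFRahi FB, against 29 ± 16.5% in SI pericytes. Lama2 holds 62.6 ± 3.6% in SI CD34+ FB and 21.3 ± 3.98% in SI PDGFRahi FB.

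The rest of the laminin family separates the populations. Lama5 holds 17.5 ± 21.2% of alpha chain TPM in SI pericytes, 24.2 ± 9.03% in colon pericytes, 10.8 ± 7.52% in SI SMC and 8.88 ± 1.57% in colon PDGFRahi FB, and at most 0.959% in the other 6 populations. Lamb2, a beta chain known from muscle, nerve and kidney basement membranes, holds 63.9 ± 8.72% of beta chain TPM in colon pericytes and 39.6 ± 11.2% in colon CD81+ FB. Lamc3, a gamma chain close to 0 in FB, holds 13.7 ± 10.3% and 13.4 ± 3.47% of gamma chain TPM in SI and colon pericytes and 1.25 ± 0.0298% in SI SMC. Lamb3, an epithelial chain, spans only 1.87 to 35.3 CPM (median 6.89), yet its share of beta chain TPM lies between 7.36% and 22.7%. Whether counts on short transcripts account for this share was not tested. Lamb3 was called in no comparison by edgeR, while DESeq2 called it in SI pericytes against FB and in SMC against SI pericytes. These shares are descriptions and carry no test.

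**Figure D2:**
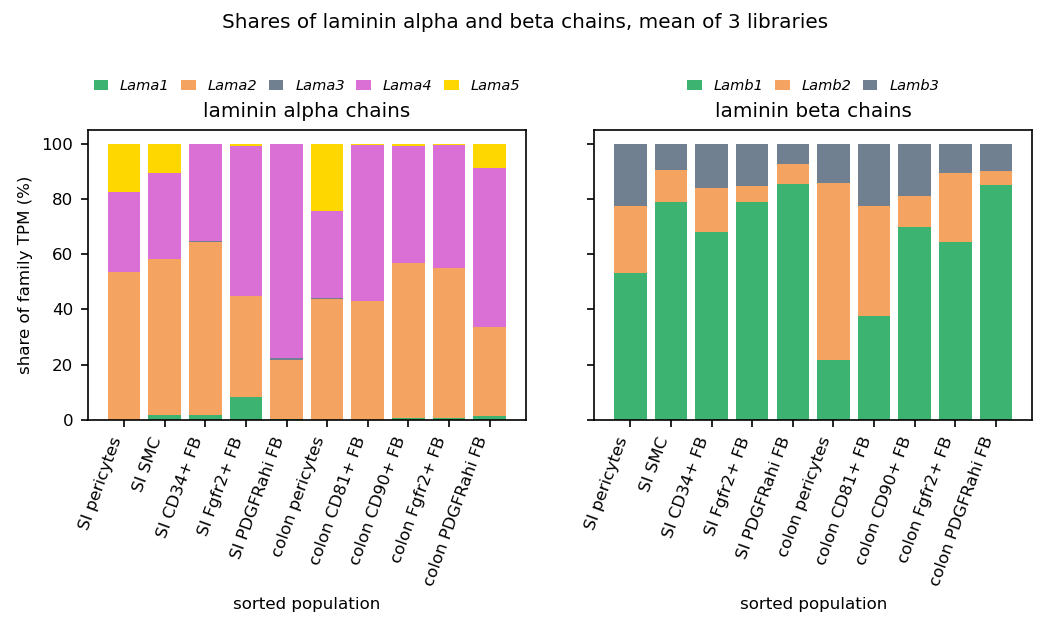
Share of laminin alpha and beta chains (vertical axis, percent of the family's TPM, mean of 3 libraries) in the 10 populations (horizontal axis), with alpha and beta chains in separate panels. Lama5 stands out in pericytes, Lamb2 in colon pericytes (63.9%) and Lama4 in SI PDGFRahi FB (77.3%).

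Itgb1, whose protein pairs with most of the alpha chains here, is the main beta chain everywhere, at 58.7% (SI CD34+ FB) to 82.3% (SI PDGFRahi FB) of beta chain TPM and 411 to 1885 CPM (median 839.9) per library. Alpha chains differ far more. Per length, Itga1, a collagen IV receptor chain, is the leading alpha chain of SI pericytes (37.2 ± 6.37% of alpha chain TPM), Itga4, which binds fibronectin and VCAM1, that of colon pericytes (25.2 ± 4.09%), Itga9, a tenascin and osteopontin receptor chain, that of SI SMC (40.03 ± 4.08%), and Itga11, a receptor chain for fibrillar collagen, that of SI PDGFRahi FB (53.9 ± 6.37%). Per length, Itga6, a laminin receptor chain, leads in SI Fgfr2+ FB at 31.3 ± 22%, a mean with a wide spread, at 18.3, 92.5 and 17.6 CPM. By CPM it is far below Itgav there (42.8 against 280 on average), so it leads only after division by transcript length. Whether counts on short transcripts account for its share was not tested. Itga6 was called in no comparison.

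Pericytes wrap small vessels and share a basement membrane with the endothelium, whereas FB lie in the interstitial matrix or beneath the epithelium. Their laminin and integrin genes differ in many members in both tissues. In the SI, 10 of 36 members were called higher in pericytes than FB, where 9.48% of all tested genes were, and 5 were called lower, where 7.08% were. In the colon, 11 of 36 were called higher (9.28% of all genes) and 4 lower (6.70%). These 2 comparisons share no library, but by the study's account the 2 tissues were taken from the same mice. Of the members called higher, 8 are the same in both (80.0% of the SI list and 72.7% of the colon list): Lama5, Lamb2, Lamc3, Itga1, Itga4, Itga7, Itga8 and Itga10. Called lower in both are Itga5, Itga11 and Itgb8, 3 of 5 in the SI and 3 of 4 in the colon. How many of all tested genes were called in both tissues was not counted, so these overlaps have no share over all genes beside them. The members' median log2 fold change is -0.30 in the SI (-0.19 with bounds, that is with a gene at 0 in all libraries of a group set at its bound and genes at or under the floor of 3 counts in both groups left out), beside -0.02 for all tested genes, and 0.50 in the colon (0.58 with bounds) beside 0.01.

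Lamc3, Lama5 and Lamb2 are the laminin chains of the pericyte side. Lamc3 reads 230.0, 585 and 241 CPM in SI pericytes and 262, 499 and 275 in colon pericytes, against 0.191, 0.174 and 0 in SI CD34+ FB and 2.13, 0.302 and 0.254 in colon CD90+ FB, the highest FB population. Every pericyte library lies above every FB library of its tissue (log2 fold change 11.56 ± 0.66, adjusted p = 2.90e-13 in the SI; 10.45 ± 0.55, adjusted p = 2.30e-14 in the colon). Lama5 is uneven in SI pericytes, at 469.7, 11.9 and 105 CPM, and even in colon pericytes, at 575, 332 and 466. In the SI its replicate 2 falls below an Fgfr2+ FB library (0.418, 20.5 and 4.49), while in the colon all pericyte libraries exceed all FB libraries, PDGFRahi FB included (115, 137 and 189). The tests give log2 fold change 5.62 ± 0.83, adjusted p = 1.08e-05 in the SI and 4.85 ± 0.73, adjusted p = 1.15e-05 in the colon. Lamb2 reads 426, 257 and 417 CPM in SI pericytes and 617, 616 and 459 in colon pericytes, without overlap with FB (log2 fold change 2.04 ± 0.25, adjusted p = 4.81e-07; 2.39 ± 0.23, adjusted p = 5.54e-09). On the FB side, Lama4 and Lama1 were called in the SI. Lama1, a chain best known from epithelial basement membranes, is 0, 0.631 and 0.369 CPM in SI pericytes and 251, 244 and 197 in SI Fgfr2+ FB, the highest of all populations (log2 fold change -7.54 ± 1.21, adjusted p = 3.31e-05 against FB). Lama4 is 248, 382 and 236 CPM in SI pericytes and 1903, 1725 and 2077 in SI PDGFRahi FB (log2 fold change -1.59 ± 0.23, adjusted p = 7.72e-06 against FB). Pericyte and FB libraries do not overlap for either gene. Endothelial markers differ in these comparisons too: Tie1, Vwf and Emcn were called higher in SI pericytes than FB, and Tie1 and Vwf in colon pericytes, where the 7 markers sum to 107, 68.7 and 83.9 CPM. Whether endothelial RNA contributes to Lama5, Lamb2 or Lamc3 was not tested.

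Collagen-binding alpha chains split between the 2 cell types. Itga1 reads 1031, 684 and 588 CPM in SI pericytes and 606, 963 and 581 in colon pericytes, above every FB library of the tissue (log2 fold change 2.697 ± 0.33, adjusted p = 6.02e-07; 3.43 ± 0.31, adjusted p = 1.13e-09). Itga10, a collagen receptor chain known from cartilage, reads 44.5, 207 and 96.7 and 269, 128 and 437 CPM, where FB libraries stay at or below 15.3 (log2 fold change 4.65 ± 0.84, adjusted p = 1.76e-04; 6.301 ± 0.78, adjusted p = 4.65e-07). Of its 31-base words, 31.8% also occur in Gm42957, so part of its count could belong to that gene. Itga11 is the reverse, at 9.21, 3.28 and 2.83 CPM in SI pericytes and 8.06, 1.01 and 4.88 in colon pericytes against 1740.2, 1961 and 1325 in SI PDGFRahi FB. All FB libraries of each tissue lie above all its pericyte libraries (log2 fold change -6.57 ± 0.63, adjusted p = 6.24e-09; -5.56 ± 0.59, adjusted p = 3.50e-08). Itga2, the other collagen-binding chain, was not called here by edgeR, though DESeq2 called it in the colon: its SI pericyte libraries read 0, 4.79 and 14.3 CPM.

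Among laminin-binding chains, Itga7, known as the muscle laminin receptor, marks pericytes of both tissues. It reads 135, 58.2 and 189 CPM in SI pericytes and 114, 178 and 209 in colon pericytes, and no FB library exceeds 3.62. Both tests call it (log2 fold change 7.45 ± 0.89, adjusted p = 3.20e-07; 8.71 ± 0.83, adjusted p = 3.70e-09). Itga3, whose product pairs with Itgb1 and is abundant in epithelia, is at 0 in all SI pericyte libraries and at 1.93, 20.5 and 56.2 CPM in colon pericytes. It is called in the colon (log2 fold change 4.72 ± 1.11, adjusted p = 0.0031), where the lowest pericyte library lies among the FB libraries.

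Receptors for other ligands follow no single direction. Itga4 reads 352, 281 and 514 CPM in SI pericytes and 1159, 1556 and 1365 in colon pericytes, against 40.1, 52.7 and 61.2 in SI Fgfr2+ FB and 304, 157 and 145 in colon Fgfr2+ FB, the highest FB of each tissue. No FB library reaches a pericyte library of its tissue (log2 fold change 3.13 ± 0.30, adjusted p = 5.66e-09; 3.51 ± 0.27, adjusted p = 7.76e-11). Itga8, the nephronectin receptor chain, is 311, 363 and 291 CPM in colon pericytes, above all colon FB (log2 fold change 5.95 ± 0.51, adjusted p = 4.57e-10). In SI pericytes it is 38.5, 17.9 and 47.9 CPM, above CD34+ FB (6.39, 1.48 and 4.4) and PDGFRahi FB (1.61, 2.99 and 1.03) but below Fgfr2+ FB (130.0, 223 and 85). The SI call for Itga8 (log2 fold change 1.73 ± 0.56, adjusted p = 0.0281) is made against a log-scale mean, with the groups overlapping. Itga5, the fibronectin receptor chain, reads 15.4, 78 and 22.6 CPM in SI pericytes and 68.2, 50.9 and 19.8 in colon pericytes and is called lower than in FB, with overlap, in both tissues (log2 fold change -1.64 ± 0.50, adjusted p = 0.0198; -1.82 ± 0.50, adjusted p = 0.00941). Itga9 is 33, 25.2 and 24.2 CPM in colon pericytes, below every colon FB library (log2 fold change -2.398 ± 0.35, adjusted p = 6.38e-06). Itgb8, a partner of alpha V that binds latent TGF-beta, is 0, 0.252 and 0.369 CPM in SI pericytes against 17.4, 112 and 29 in SI Fgfr2+ FB (log2 fold change -6.504 ± 0.89, adjusted p = 3.30e-06 against FB). In colon pericytes, Itgb8 has 2 counts in 3 libraries, and FB exceed them 540.2-fold (counting interval 149.6 to 4461; adjusted p = 1.26e-07). The interval covers counting error only and not the spread between libraries. The pericyte and FB libraries of Itgb8 do not overlap in either tissue. SMC markers were called higher in pericytes than FB as well, 6 of 8 in the SI and 7 of 8 in the colon, and whether SMC RNA contributes to Itga4 or Itga8 in pericytes was not tested.

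Leukocyte and epithelial integrin and laminin genes were called in pericytes at low levels. Itgam, the alpha chain of a myeloid integrin, is 11.8, 19.1 and 25.8 CPM in SI pericytes, above every SI FB library (log2 fold change 2.097 ± 0.51, adjusted p = 0.00413), but 68.3% of its 31-base words also occur in Gm49368. Itgb7, a chain of gut-homing lymphocytes, is 0.214, 9.46 and 49.3 CPM there, with overlap (log2 fold change 3.82 ± 1.19, adjusted p = 0.0224). Itgb2, the partner of Itgam, is at 0 in all pericyte libraries. Leukocyte markers (10 genes, Cd68 at the top, Fcer1g and Tyrobp at 0 in SI pericytes) sum to 431, 81 and 82.2 CPM in the same SI libraries and 104, 170.1 and 30.6 in colon pericytes, and at most 66 elsewhere. Whether leukocyte RNA contributes to Itgam or Itgb7 was not tested. In colon pericytes, Itgb4, the hemidesmosome chain, is 1.72, 31.2 and 19.4 CPM (log2 fold change 2.39 ± 0.83, adjusted p = 0.0437) and Lama3, an epithelial laminin chain, 0.215, 0 and 16.3 (log2 fold change 5.505 ± 1.52, adjusted p = 0.0126), both overlapping FB. Epithelial markers (9 genes, Muc2 at the top, Epcam, Krt18, Krt20 and Fabp2 at 0) sum to 0, 109.7 and 23 CPM in these libraries, and whether epithelial RNA contributes to Itga3, Itgb4 or Lama3 was not tested. Itga2b, the platelet chain, was called nowhere and spans 0 to 14.6 CPM (median 2.19); platelet markers (3 genes, Ppbp at 0 in all libraries) are at 0 in all pericyte libraries and at most 8.21 CPM elsewhere.

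Genes for partners of these proteins also differed between pericytes and FB. Of genes for basement membrane partners and other laminin receptors (collagen IV, nidogens, perlecan, agrin and others), SI pericytes had 5 of 14 higher and 3 of 14 lower (median -0.55), led by Col15a1 (-5.75), Bcam (4.64), Col4a4 (3.93) and Col4a3 (2.46), and colon pericytes 3 of 14 higher and 4 of 14 lower (median 0.34), led by Bcam (6.16), Col15a1 (-4.46), Agrn (2.63) and Col4a5 (-2.15). Other integrin ligands, with Madcam1 not tested, were called lower more often than higher: 1 of 12 higher and 6 of 12 lower (median -1.64, -1.85 with bounds) in the SI, led by Vtn (8.69), Svep1 (-5.599), Emilin1 (-4.17) and Tnc (-3.97), and 2 of 12 higher and 7 of 12 lower (median -2.31) in the colon, led by Vtn (9.17), Svep1 (-6.76), Fn1 (-4.94) and Postn (-4.67). Vtn, which encodes the alpha V ligand vitronectin, reads 333, 229 and 216 CPM in SI pericytes and 129, 114 and 109 in colon pericytes. For genes that link integrins to actin, with Parvg not tested, the counts are 4 of 18 higher and 0 of 18 lower (median 1.01) in the SI, with Lims2 (3.58), Tns1 (2.95), Ptk2 (1.91) and Vcl (1.598), and 2 of 18 higher and 0 of 18 lower (median 0.42) in the colon, with Tns1 (1.78) and Tln1 (1.64). The linker with the highest CPM, Tns1, is 6591, 3885 and 3044 CPM in SI pericytes. The medians of all tested genes are -0.02 and 0.01.

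Several pericyte calls hang on single libraries. In the SI, calls end without SI pericyte replicate 1 for Itga5 (-1.298, adjusted p = 0.114) and Itga8 (1.63, adjusted p = 0.088), without replicate 3 for Itga5 (-1.37, adjusted p = 0.0876), Itga8 (1.43, adjusted p = 0.113), Itgb7 (1.81, adjusted p = 0.348) and Lama4 (-1.46, adjusted p = 2.23e-04), and without SI CD34+ FB replicate 2 for Itga8 (1.57, adjusted p = 0.0564). In the colon, calls end without pericyte replicate 3 for Itga3 (3.497, adjusted p = 0.0607), Itga5 (-1.45, adjusted p = 0.0729) and Lama3 (0.01, adjusted p = 0.891), and for Itgb4 without any of 12 of the 15 libraries (all but pericyte replicate 1, CD81+ FB replicate 2 and Fgfr2+ FB replicate 1), for example pericyte replicate 2 (1.68, adjusted p = 0.288). A replicate block ends the calls of Itgb7 in the SI (adjusted p = 0.0549) and of Itgb4 (adjusted p = 0.103) and Lama3 (adjusted p = 0.222) in the colon, and DESeq2 also ends that of Lama3 (adjusted p = 0.152). Length-scaled counts end those of Lamb2 in the SI (1.46, adjusted p = 0.0125) and Itgb4 in the colon (1.901, adjusted p = 0.217).

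**Figure D3:**
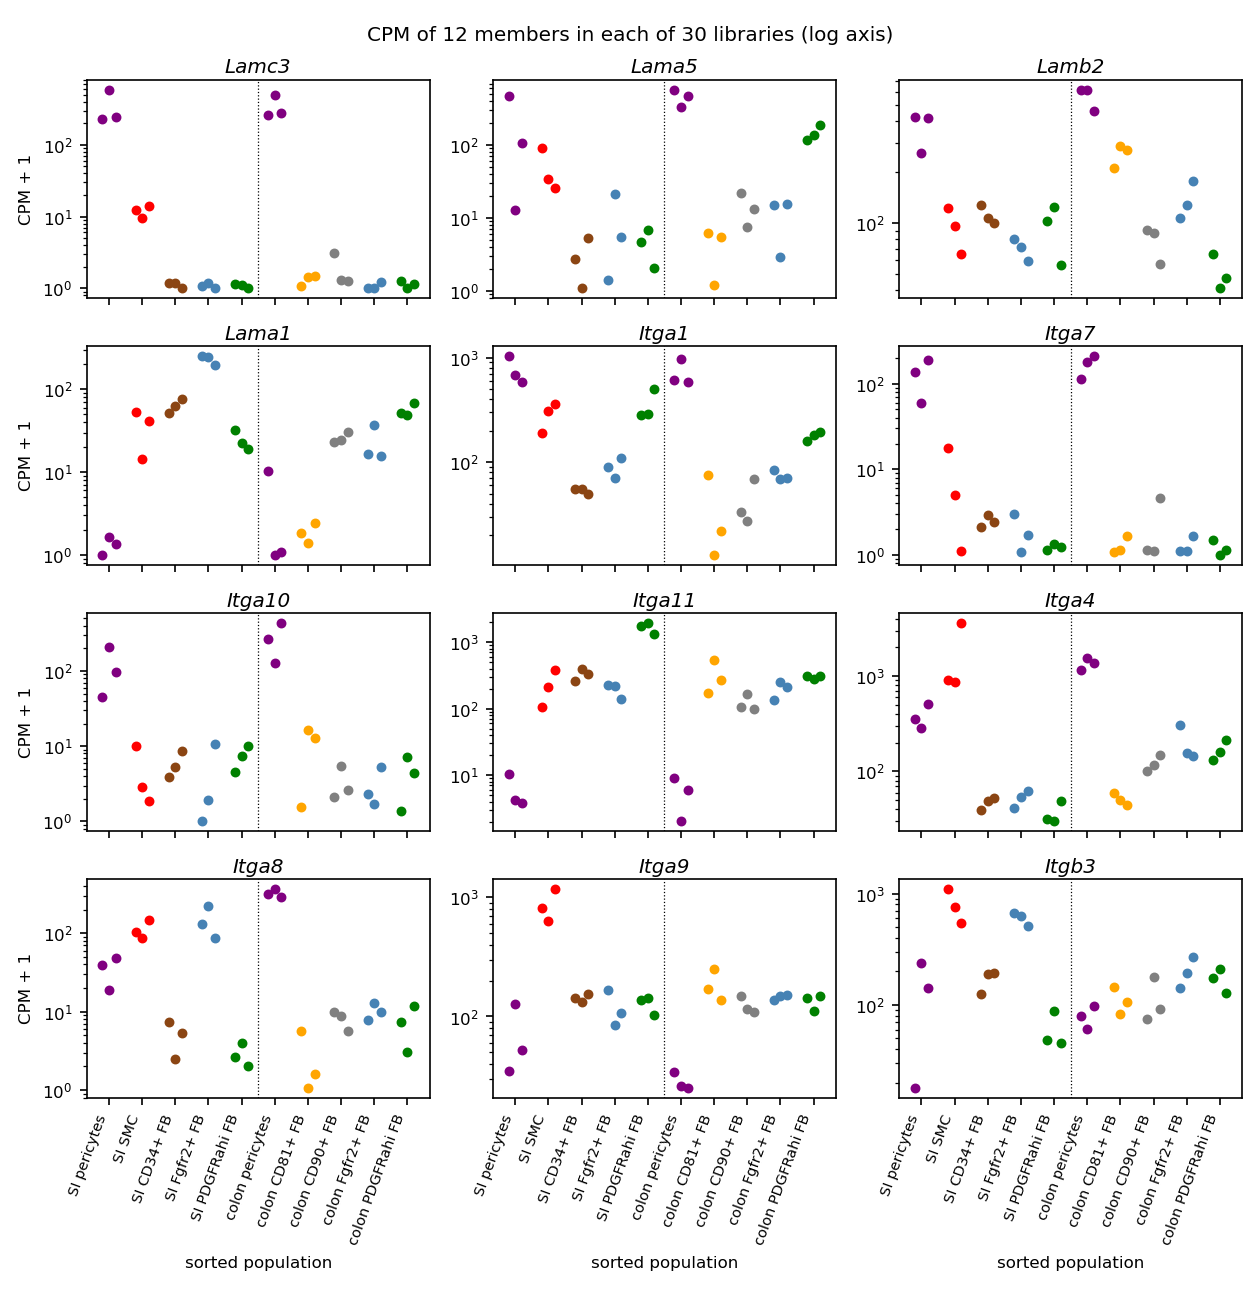
CPM plus 1 on a log axis (vertical) of 12 members in each of the 30 libraries, by population (horizontal axis; 3 points each, SI left and colon right of the dotted line). Lamc3, Itga7 and Itga10 are high in pericytes of both tissues, Itga9 and Itga4 in SI SMC (865 and 1801 CPM on average), and Itga11 in SI PDGFRahi FB (1675 CPM).

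Smooth muscle cells of the SI contract and are held in their own basement membranes. Against SI FB, 8 of 36 members were called higher in SMC (3.42% of all genes) and 2 lower (1.74%); against SI pericytes, 8 were higher (5.36%) and 5 lower (4.80%). Both comparisons share the SMC libraries, and each shares its other group with the pericyte comparison above. The members' median is 0.11 against FB (all genes -0.04) and 0.24 against pericytes (all genes 0.00). Without SI SMC replicate 3, which stands apart, 10 members are called against FB and 10 against pericytes, beside 10 and 13 with it. In a fit of only SMC and SI pericytes, the calls against pericytes end for Itga10 (adjusted p = 0.0555), Itga5 (adjusted p = 0.0741), Lamb2 (adjusted p = 0.0809), Itga4 (adjusted p = 0.0932), Itgb5 (adjusted p = 0.12), Itgb3 (adjusted p = 0.132) and Itga7 (adjusted p = 0.162), and Itga3 is not tested. Length-scaled counts end those of Itga10 (-4.38, adjusted p = 0.0506), Itga3 (8.55, adjusted p = 0.0584) and Lamb2 (-1.55, adjusted p = 0.0702).

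The SMC integrins are Itga9, Itga4, Itgb3, Itga5 and Itga8. Itga9 reads 804, 629 and 1161 CPM in SMC, above every other library of the series (log2 fold change 2.75 ± 0.27, adjusted p = 3.62e-08 against FB; 3.61 ± 0.41, adjusted p = 3.06e-07 against pericytes). Itga4 reads 917, 866 and 3619.6 CPM, with replicate 3 far above the rest, and lies above all SI FB and pericyte libraries (log2 fold change 5.36 ± 0.31, adjusted p = 9.94e-13; 2.23 ± 0.42, adjusted p = 5.21e-04). Itgb3, a beta chain that pairs with alpha V, reads 1091, 753 and 547 CPM beside 661, 624 and 512 in SI Fgfr2+ FB and 16.9, 236 and 142 in SI pericytes. It overlaps FB and not pericytes (log2 fold change 2.13 ± 0.38, adjusted p = 3.94e-04; 2.59 ± 0.55, adjusted p = 0.00176). Itga5 reads 209, 162 and 738 CPM, again highest in replicate 3 and overlapping FB (log2 fold change 1.61 ± 0.42, adjusted p = 0.0144) but not pericytes (3.25 ± 0.60, adjusted p = 3.93e-04). Itga8 reads 102, 85 and 146 CPM, overlapping Fgfr2+ FB (log2 fold change 3.400 ± 0.55, adjusted p = 7.96e-05 against FB), and was not called against pericytes. By contrast Itgb5, another alpha V partner, is 13.8, 18.5 and 2.75 CPM in SMC, below all SI FB and pericyte libraries (log2 fold change -3.35 ± 0.71, adjusted p = 0.00238; -3.21 ± 0.76, adjusted p = 0.00526).

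Other members place SMC between FB and pericytes or nearer to either. Lamc3 reads 11.2, 8.57 and 13.2 CPM in SMC, above FB (log2 fold change 6.56 ± 0.61, adjusted p = 1.23e-08) and below pericytes (-5.001 ± 0.77, adjusted p = 4.20e-05) in all libraries. Itga7 reads 16.7, 4.04 and 0.11 CPM, overlapping FB (log2 fold change 3.25 ± 0.84, adjusted p = 0.0147) and below pericytes (-4.19 ± 1.22, adjusted p = 0.0242). Lama5 reads 89.7, 33.7 and 25 CPM, above all SI FB libraries (log2 fold change 3.63 ± 0.81, adjusted p = 0.00376). Lama4 reads 222, 315 and 176 CPM, below all SI FB libraries (log2 fold change -1.87 ± 0.23, adjusted p = 2.02e-06) and overlapping pericytes. The pericyte markers Rgs5, Mcam and Esam were called higher in SMC than FB and Abcc9 lower, and whether pericyte RNA contributes to Lamc3, Itga7 or Lama5 in SMC was not tested. Further members separate SMC from pericytes alone. Itga11 (103, 211 and 380.2 CPM; log2 fold change 5.53 ± 0.63, adjusted p = 3.06e-07), Lama1 (52.3, 13.4 and 40.8; 6.56 ± 1.204, adjusted p = 3.80e-04) and Itgb8 (38, 43.9 and 20.2; 7.15 ± 0.95, adjusted p = 3.94e-06) are higher in SMC than in pericytes, without overlap. The FB markers Dcn, Lum and Pdpn were called higher in SMC than in pericytes too, with the FB marker sum and Itga11 both highest in SMC replicate 3. Whether FB RNA contributes to Itga11, Lama1 or Itgb8 was not tested. Itga10 (9.18, 1.83 and 0.88 CPM; log2 fold change -4.87 ± 1.31, adjusted p = 0.014) and Lamb2 (121, 94.5 and 64.5; -1.97 ± 0.34, adjusted p = 2.01e-04) are lower, without overlap. Itga3 is 12, 9.24 and 0 CPM in SMC against 0 in all SI pericyte libraries, at least 15.3-fold higher at a floor of 3 counts per library, with 1 SMC library at 0 too (adjusted p = 0.0278). Epithelial markers sum to 9.81, 9.82 and 67.8 CPM in SMC, and whether epithelial RNA contributes to Itga3 there was not tested.

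Ligand genes differed in SMC as well. Npnt, the gene of the alpha 8 beta 1 ligand nephronectin, reads 2591, 1973 and 3024 CPM in SMC. Integrin ligands were 2 of 12 higher and 5 of 12 lower (median -1.43, -1.42 with bounds) against FB, led by Npnt (7.35), Icam1 (-3.76), Postn (3.65) and Fbn1 (-1.99), and 6 of 12 higher and 2 of 12 lower (median 1.15, 1.99 with bounds) against pericytes, led by Vtn (-9.64), Npnt (6.997), Svep1 (4.76) and Icam1 (-3.699). Basement membrane partners were 0 of 14 higher and 3 of 14 lower (median -0.74) against FB, namely Col4a5 (-6.51), Col4a6 (-3.45) and Agrn (-1.69), and 1 of 14 higher and 6 of 14 lower (median -1.61) against pericytes, led by Col4a5 (-5.17), Bcam (-4.32), Col4a4 (-4.11) and Col4a3 (-3.79). The actin linkers were 3 of 18 higher and 1 of 18 lower (median 0.86), namely Lims2 (3.69), Tns3 (-2.55), Tns1 (1.804) and Vcl (1.66), and 1 of 18 higher and 3 of 18 lower (median 0.07), namely Tns3 (-3.21), Ptk2 (-2.41), Tns2 (-1.85) and Zyx (1.51). Against FB, calls end for Itga5 without SI SMC replicate 3 (0.64, adjusted p = 0.735) and for Itga7 (1.53, adjusted p = 0.418) and Lama5 (2.88, adjusted p = 0.0532) without SMC replicate 1. Against pericytes, they end for Itga4 without SMC replicate 3 (1.27, adjusted p = 0.0207), for Itga10 and Itga7 without SMC replicate 2 (-4.53, adjusted p = 0.0686; -3.92, adjusted p = 0.0943) or 3 (-4.35, adjusted p = 0.0759; -3.57, adjusted p = 0.0787), and for Itga3 without SMC replicate 1 (8.64, adjusted p = 0.0542) or SI pericyte replicate 1 (9.29, adjusted p = 0.0718), 2 (9.26, adjusted p = 0.0722) or 3 (9.26, adjusted p = 0.0596).

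Among FB, the PDGFRahi cells are nearest to the epithelium, and Fgfr2+ FB lie in the villus interior of the SI and between the crypts of the colon. In the SI edgeR called 3 of 36 members higher in PDGFRahi FB than in Fgfr2+ FB (1.17% of all genes) and 3 lower (1.36%), and all 6 are integrins. They separate the libraries without overlap, and the members' median is 0.11 beside 0.01 for all genes. Higher are the collagen receptor chains Itga11, at 1740.2, 1961 and 1325 CPM in PDGFRahi FB against 226, 221 and 138 in Fgfr2+ FB (log2 fold change 3.102 ± 0.55, adjusted p = 7.84e-04), and Itga1, at 283, 288 and 504 against 89.1, 69.8 and 108 (log2 fold change 2.01 ± 0.47, adjusted p = 0.0117). Itga5 is higher as well, at 371, 302 and 193 CPM against 47.6, 83.8 and 51.8 (log2 fold change 2.24 ± 0.57, adjusted p = 0.0262). The SMC markers Myh11, Acta2 and Tagln (8 markers, 2872, 4407 and 2915 CPM against 1081, 1292 and 849) and the pericyte markers Kcnj8 and Abcc9 were called higher in PDGFRahi FB too, and the pericyte markers Rgs5 and Notch3 lower; whether RNA of SMC or pericytes contributes to Itga1 or Itga5 was not tested. Lower are Itga8, at 1.61, 2.99 and 1.03 CPM against 130.0, 223 and 85 (log2 fold change -6.25 ± 0.92, adjusted p = 7.01e-05), and Itgb3, at 46.9, 87.3 and 44.6 against 661, 624 and 512 (log2 fold change -3.33 ± 0.56, adjusted p = 4.45e-04). The collagen and laminin receptor chain Itga2 is nearly absent from PDGFRahi FB, at 0.938, 0.113 and 0 CPM against 19, 8.12 and 80.9 (log2 fold change -6.75 ± 1.62, adjusted p = 0.0154).

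Laminins of SI PDGFRahi FB read above those of Fgfr2+ FB in every library for Lama4 (1903, 1725 and 2077 CPM against 941, 549.8 and 640.3), Lamb1 (2327, 2517 and 2162 against 1206, 1220.4 and 978) and Lamc1 (3448, 3243 and 3326 against 1847, 1595 and 1403), without a call, as their log2 fold changes stay below 1.5. Lama3 reads 0, 2.88 and 89.8 CPM there and 0 in all SI Fgfr2+ FB libraries, at least 61.1-fold higher at the floor of 3 counts per library, but 1 PDGFRahi FB library is at 0 and nearly all of the level comes from replicate 3 (adjusted p = 0.0998). Epithelial markers sum to 0.67, 2.82 and 0.345 CPM in these libraries, and whether epithelial RNA contributes to Lama3 was not tested. Lama1 was lower instead, with 777 counts over the SI PDGFRahi FB libraries against 6869 in SI Fgfr2+ FB, and edgeR did not call it. DESeq2, a fit of only these populations and no count filter did call Lama1. DESeq2 also called Itgb8, and no count filter Lama3. Basement membrane partners were 3 of 14 higher and 0 of 14 lower (median 0.65), namely Col4a5 (6.38), Col4a6 (4.28) and Hspg2 (2.35), integrin ligands 0 of 12 higher and 3 of 12 lower (median -0.29, -0.59 with bounds), namely Vcam1 (-4.43), Postn (-2.17) and Svep1 (-1.899), and actin linkers 2 of 18 higher and 0 of 18 lower (median 0.68), namely Lims2 (7.58) and Bcar1 (1.801). Calls end for Itga1 without PDGFRahi FB replicate 3 (1.69, adjusted p = 0.0848) or Fgfr2+ FB replicate 1 (2.01, adjusted p = 0.0562) or 2 (1.86, adjusted p = 0.0769), and for Itga2 without PDGFRahi FB replicate 2 (-6.26, adjusted p = 0.116) or 3 (-6.18, adjusted p = 0.095) or Fgfr2+ FB replicate 3 (-5.34, adjusted p = 0.078). The call for Itga5 ends without PDGFRahi FB replicate 1 (2.02, adjusted p = 0.114) or 2 (2.205, adjusted p = 0.0737) or Fgfr2+ FB replicate 1 (2.09, adjusted p = 0.147) or 3 (2.14, adjusted p = 0.115).

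In the colon the edgeR test called 0 of 36 members higher and 0 lower between PDGFRahi FB and Fgfr2+ FB, where 0.495% and 0.837% of all genes were called. An unadjusted p below 0.05 was seen for 9 of 36 members, with the share over all genes not counted, and DESeq2 called 2. The members' median is 0.12 (0.13 with bounds) beside -0.02. Lama5 reads 115, 137 and 189 CPM in colon PDGFRahi FB and 14, 1.95 and 14.4 in colon Fgfr2+ FB, and Itga1 157, 182 and 192 and 82.3, 68.3 and 69.6. For both genes the libraries do not overlap, but neither passed the edgeR test. Lama5 was called by DESeq2, by a fit of only these populations and with no count filter, Itga5 (384, 316 and 392 CPM against 49.8, 116 and 154) by DESeq2 and that fit, Itga2 by that fit alone, and Lamb2 at a fold threshold of 1 or none. The SMC markers Myh11, Acta2, Tagln and Synpo2 were called higher in PDGFRahi FB and Des lower. The 8 SMC markers sum to 1946, 1686 and 2867 CPM against 428, 418 and 648. Abcc9 and Ano1 were called higher too, and Rgs5 lower. Whether RNA of such cells contributes to Lama5, Itga1 or Itga5 was not tested. Of the partner lists, basement membrane genes were 0 of 14 higher and 0 of 14 lower (median 0.29), integrin ligands 0 of 12 higher and 1 of 12 lower (median -0.43, -0.61 with bounds), namely Svep1 (-1.57), and actin linkers 0 of 18 higher and 0 of 18 lower (median 0.24).

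CD34+ FB surround the crypts and reach into the submucosa. Set against SI Fgfr2+ FB, 0 of 36 members were called higher in CD34+ FB by edgeR (0.837% of all genes) and 1 lower (0.376%), with 10 at an unadjusted p below 0.05 and 2 called by DESeq2. The member is Itga8, at 6.39, 1.48 and 4.4 CPM in CD34+ FB against 130.0, 223 and 85 in Fgfr2+ FB, without overlap (log2 fold change -5.16 ± 0.87, adjusted p = 0.00112). The members' median is 0.19 (0.14 with bounds) beside 0.02. Lama1 reads 50.4, 62.3 and 74.5 CPM in CD34+ FB against 251, 244 and 197, also without overlap but not called. The SMC markers Myh11, Acta2, Des and Synpo2 were called lower in CD34+ FB as well (8 markers, 289, 309 and 328 CPM against 1081, 1292 and 849). Of 8 pericyte markers, 1 was called lower, Kcnj8, and 0 higher. Whether RNA of SMC or pericytes contributes to Itga8 was not tested. Basement membrane partners were 0 of 14 higher and 0 of 14 lower (median 0.28), integrin ligands 2 of 12 higher and 0 of 12 lower (median -0.03, -0.07 with bounds), namely Postn (2.55) and Svep1 (1.84), and actin linkers 1 of 18 higher and 0 of 18 lower (median 0.05), namely Lims2 (5.98). This comparison shares the Fgfr2+ FB libraries with the PDGFRahi FB comparison.

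The colon CD81+ FB lie near submucosal vessels and CD90+ FB at crypt bases. Of 36 members, 1 was called higher in CD81+ FB (0.273% of all genes) and 1 lower (0.347%), both laminins. Lamb2 reads 212, 287 and 269 CPM in CD81+ FB against 90.1, 85.8 and 55.8 in CD90+ FB (log2 fold change 1.73 ± 0.34, adjusted p = 0.0112). Lama1 is nearly silent in CD81+ FB, at 0.858, 0.378 and 1.42 CPM against 22.1, 23.2 and 29.4 (log2 fold change -4.81 ± 1.07, adjusted p = 0.0255). Both separate all 3 libraries from all 3. The pericyte marker Rgs5 and the SMC marker Acta2 were called lower in CD81+ FB as well. Whether RNA of such cells contributes to Lamb2 or Lama1 was not tested. The members' median is -0.25 beside 0.01, and partners show 1 of 14 higher and 1 of 14 lower (median -0.40) for basement membrane genes, namely Nid2 (-3.01) and Nid1 (1.59), 0 of 12 higher and 1 of 12 lower (median -0.20, -0.27 with bounds) for integrin ligands, namely Tnc (-2.204), and 0 of 18 higher and 0 of 18 lower (median 0.11) for actin linkers. In a fit of only these populations the calls of Lama1 (adjusted p = 0.0524) and Lamb2 (adjusted p = 0.068) end, and with length-scaled counts that of Lamb2 (2.38, adjusted p = 0.0523). The Lamb2 call ends without CD90+ FB replicate 3 (1.54, adjusted p = 0.0952), and the Lama1 call ends without CD81+ FB replicate 1 (-4.798, adjusted p = 0.0801), 2 (-4.44, adjusted p = 0.154) or 3 (-5.29, adjusted p = 0.0735) or CD90+ FB replicate 1 (-4.89, adjusted p = 0.0581), 2 (-4.86, adjusted p = 0.0596) or 3 (-4.67, adjusted p = 0.0663).

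Across tissues, populations of the same name were compared with the limit that their gates differ for FB. Itga4 is the member that recurs: it was called lower in the SI in all 3 of these comparisons. It reads 30.9, 28.9 and 48 CPM in SI PDGFRahi FB against 132, 158 and 210.2 in colon PDGFRahi FB (log2 fold change -2.21 ± 0.42, adjusted p = 0.00296), and 40.1, 52.7 and 61.2 in SI Fgfr2+ FB against 304, 157 and 145 in colon Fgfr2+ FB (log2 fold change -1.98 ± 0.42, adjusted p = 0.00793). Between pericytes of the SI and colon, whose levels stand above, the difference is -1.83 ± 0.42, adjusted p = 0.0102. In each pair all SI libraries lie below all colon libraries. The 3 comparisons share no library with each other, but share mice by the same account. In a fit of only the pericytes of both tissues the pericyte call of Itga4 ends (adjusted p = 0.229).

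PDGFRahi FB differ between SI and colon in 1 member called higher in the SI (0.336% of all genes) and 2 lower (0.621%), with a median of 0.04 (0.03 with bounds) beside 0.02. Itga11 is higher in the SI, at 1740.2, 1961 and 1325 against 313, 283 and 305 CPM (log2 fold change 2.48 ± 0.54, adjusted p = 0.0119). Lama5 is lower, at 3.75, 5.81 and 1.03 against 115, 137 and 189 (log2 fold change -5.35 ± 1.29, adjusted p = 0.0329). Neither overlaps. Epithelial markers sum to 3.55, 0 and 120.0 CPM in colon PDGFRahi FB, with replicate 3 high, and Lama5 is high in all 3 libraries; whether epithelial RNA contributes was not tested. The pericyte markers Rgs5 and Abcc9 and the SMC marker Des were called higher in SI than colon PDGFRahi FB and Ano1 lower, and whether RNA of such cells contributes to these members was not tested. Partner lists gave 1 of 14 higher and 0 of 14 lower (median 0.08), namely Nid2 (2.53), for basement membrane genes, 0 of 12 higher and 2 of 12 lower (median -0.08), namely Postn (-7.06) and Svep1 (-1.65), for integrin ligands, and 0 of 18 higher and 0 of 18 lower (median 0.24) for actin linkers. The Lama5 call ends without any of the 6 libraries, with adjusted p from 0.0579 (without colon PDGFRahi FB replicate 1) to 0.214 (without SI PDGFRahi FB replicate 3), and the Itga11 call ends without colon replicate 1 (2.51, adjusted p = 0.0707), 2 (2.44, adjusted p = 0.0841) or 3 (2.49, adjusted p = 0.0784) or SI replicate 2 (2.35, adjusted p = 0.0546).

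Fgfr2+ FB differ in 1 member higher in the SI (0.512% of all genes), Itga8, and 1 lower (0.939%), Itga4, with a median of 0.26 beside -0.02. Itga8 reads 130.0, 223 and 85 CPM in SI against 6.82, 12 and 8.76 in colon Fgfr2+ FB, without overlap (log2 fold change 3.99 ± 0.82, adjusted p = 0.00615). The SMC markers Myh11, Des and Synpo2 were called higher in the SI too (8 markers, 1081, 1292 and 849 CPM against 428, 418 and 648). So was the pericyte marker Rgs5. Whether RNA of SMC or pericytes contributes to Itga8 was not tested. Partners show 1 of 14 higher and 2 of 14 lower (median -0.66) for basement membrane genes, namely Col4a5 (-4.45), Nid2 (3.71) and Col4a6 (-3.03), 0 of 12 higher and 1 of 12 lower (median -0.02, -0.04 with bounds) for integrin ligands, namely Postn (-5.65), and 0 of 18 higher and 1 of 18 lower (median 0.00) for actin linkers, namely Lims2 (-5.68). Without colon Fgfr2+ FB replicate 1 the calls of Itga8 (3.81, adjusted p = 0.0542) and Itga4 (-1.56, adjusted p = 0.082) end, and without SI Fgfr2+ FB replicate 1 that of Itga4 (-1.83, adjusted p = 0.0738).

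Pericytes, sorted by the same gate in both tissues, had 0 of 36 members called higher in the SI by edgeR (2.96% of all genes) and 4 lower (2.73%), with 12 at an unadjusted p below 0.05 in either direction and 7 called by DESeq2. The members' median is -0.40 beside 0.00. Itga8 reads 38.5, 17.9 and 47.9 CPM in SI against 311, 363 and 291 in colon pericytes (log2 fold change -3.21 ± 0.79, adjusted p = 0.0172), with no overlap. SMC markers are lower in SI than in colon pericytes as well, at 5827, 4158 and 4162 CPM against 10976, 12272 and 12487, with Myh11 and Acta2 called. Whether SMC RNA contributes to Itga4 or Itga8 was not tested. A fit of only these pericytes ends the calls of Itga8 (adjusted p = 0.195) and Itga3 (adjusted p = 0.302), and length-scaled counts end that of Itga8 (-2.52, adjusted p = 0.0636). Itga3 is at 0 in all SI pericyte libraries, so that colon pericytes are at least 56.6-fold higher at the floor of 3 counts per library (adjusted p = 0.0206). Partners show 0 of 14 higher and 1 of 14 lower (median -0.35) for basement membrane genes, namely Col4a6 (-2.78), 3 of 12 higher and 2 of 12 lower (median 0.07, 0.09 with bounds) for integrin ligands, led by Thbs1 (-3.503), Vcam1 (3.17), Icam1 (2.94) and Fn1 (2.41), and 0 of 18 higher and 0 of 18 lower (median 0.33) for actin linkers. Calls end for Itga3 without SI pericyte replicate 1 (-11.18, adjusted p = 0.057) or 2 (-11.15, adjusted p = 0.0511) and for Itga8 without SI replicate 2 (-2.89, adjusted p = 0.054).

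Whether a difference between populations itself differs between tissues was tested as an interaction. For PDGFRahi FB against Fgfr2+ FB, edgeR called 0 of 36 members with a larger value in the SI (0.353% of all genes) and 2 with a smaller (0.307%), Itga8 and Itgb3, with 8 at an unadjusted p below 0.05 and 5 called by DESeq2. For pericytes against FB, 1 had a larger value in the SI (2.03%), Itga9, and 3 a smaller (1.72%), Itga3, Itga8 and Lama1; their values stand in the closing section. The members' medians are 0.12 (-0.01 with bounds) beside 0.08 and -0.59 (-0.38 with bounds) beside 0.00. Among partners, the FB interaction gave 1 of 14 higher and 0 of 14 lower (median 0.50) for basement membrane genes, namely Hspg2 (1.83), 1 of 12 higher and 0 of 12 lower (median -0.81, -0.29 with bounds) for integrin ligands, namely Fbn1 (1.69), and 1 of 18 higher and 0 of 18 lower (median 0.26) for actin linkers, namely Lims2 (6.68). The pericyte interaction gave 0 of 14 higher and 2 of 14 lower (median -0.37), namely Nid2 (-3.58) and Col18a1 (-1.62), 3 of 12 higher and 3 of 12 lower (median 0.73, 1.16 with bounds), led by Postn (5.19), Vcam1 (3.41), Emilin1 (-3.31) and Thbs1 (-3.13), and 1 of 18 higher and 0 of 18 lower (median 0.17, 0.12 with bounds), namely Lims2 (4.09), in the same order.

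The members that edgeR called nowhere fall into a broad and a scarce group. Itgav, the alpha V chain shared by several RGD receptors, spans 63.8 to 388 CPM (median 193) and is present in every library, as are Itgb1, Lama2, Lamb1 and Lamc1. Itga6 spans 0.126 to 92.5 CPM (median 15). Leukocyte chains are scarce: Itgal spans 0 to 19.7 CPM (median 0.966), Itgae 0 to 6.44 CPM (median 0.083), Itgad, which DESeq2 called between pericytes of the SI and colon and in the pericyte interaction, 0 to 2.9 CPM (median 0.275) and Itgb2 0 to 2.98 CPM (median 0). Of the 31-base words of Itgad, 26.3% also occur in Itgax. Itgb6, an epithelial partner of alpha V, spans 0.887 to 7.28 CPM (median 2.12).

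Of the 8 genes called higher in pericytes of both tissues, 6 have a promoter in the RefSeq table (GRCm38.p6); Itga7 and Lamc3 have no entry. Their 250 bases upstream of the RefSeq gene start were searched on both strands for the CArG box of serum response factor, the RBPJ motif GTGGGAA and the GC box GGGCGG, none of which overlap in these 6. CArG boxes were found in 0 of 6 (in 1.47% of 32851 promoters), RBPJ motifs in 0 of 6 (5.42%) and GC boxes in 2 of 6 (32.7%): 1 in Itga4 and 4 in Lama5. A match is a description of letters only. The 4 printed below are those with pericyte libraries above all FB libraries in both tissues and calls that no left-out library ended: Itga1 (chr13:115101965-115102214, minus strand), Itga10 (chr3:96645334-96645583, plus strand), Itga4 (chr2:79255176-79255425, plus strand) and Lamb2 (chr9:108479612-108479861, plus strand). Capitals mark the GC box. The Lamb2 window reaches past the gene start that GENCODE M21 gives, so part of it lies inside the gene by that annotation.
Itga1: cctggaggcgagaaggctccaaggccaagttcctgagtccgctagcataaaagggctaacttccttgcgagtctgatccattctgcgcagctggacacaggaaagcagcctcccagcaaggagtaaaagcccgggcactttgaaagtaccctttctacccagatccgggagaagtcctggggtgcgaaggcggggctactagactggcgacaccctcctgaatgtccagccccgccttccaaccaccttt
Itga10: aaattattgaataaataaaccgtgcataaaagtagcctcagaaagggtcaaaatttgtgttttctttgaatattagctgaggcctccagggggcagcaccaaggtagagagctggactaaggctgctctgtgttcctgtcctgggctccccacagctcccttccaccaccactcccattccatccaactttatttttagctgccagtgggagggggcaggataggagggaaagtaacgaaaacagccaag
Itga4: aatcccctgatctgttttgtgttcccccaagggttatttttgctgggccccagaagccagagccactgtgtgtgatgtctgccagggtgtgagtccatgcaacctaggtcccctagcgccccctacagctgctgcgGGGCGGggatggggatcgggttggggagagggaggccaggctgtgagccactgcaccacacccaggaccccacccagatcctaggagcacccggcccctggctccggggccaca
Lamb2: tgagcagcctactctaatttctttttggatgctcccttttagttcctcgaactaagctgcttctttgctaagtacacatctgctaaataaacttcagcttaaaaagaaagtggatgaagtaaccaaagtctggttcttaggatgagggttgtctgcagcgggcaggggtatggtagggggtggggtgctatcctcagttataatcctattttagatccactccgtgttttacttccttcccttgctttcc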

How the data were processed

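Libraries of 10 sorted populations, 3 each, were analysed. The authors trimmed reads (Trim Galore 0.4.0, FastQC 0.11.2) and quantified them with kallisto 0.42.5; the deposited values are an estimated count and a TPM per transcript. Of 98492 transcripts, 97204 matched GENCODE M21 and were summed to 32386 genes by symbol, and counts were rounded to whole numbers. TPM was rescaled to matched genes. The 17564 genes that reach 6 counts in 3 or more of 30 libraries were tested with edgeR 4.0.16 (R 4.3.3; TMM, quasi-likelihood) in 1 model of 10 means with 20 residual degrees of freedom; log2 values use a prior count of 2, and each standard error is the absolute log2 fold change over the square root of F. The filter and thresholds take their values from the study's methods, which filter transcripts and apply the fold threshold between tissues; here they apply to genes and to every comparison. Those methods state DESeq2, used here (1.42.0) as an alternative. Between 97.8% and 99.2% of counts fell on matched genes, but only 43.9% to 88.2% of TPM. The members and lists were chosen with earlier results of these data known. Every member may be named, with full statistics when called; from each partner list the most abundant gene and up to 4 called genes with the largest absolute log2 fold change per comparison may be named, and marker genes with values. Motifs and the promoters printed were chosen after seeing the data. The tests were also run on simulated data. Alternatives were DESeq2, RLE factors, other count filters, length-scaled counts, a fit of only the populations compared, a replicate block, other fold thresholds, each library left out, and shares from effective lengths.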

Additional observations from a re-analysis of the deposited data

Results flagged for a closer look

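In all, 6 differences between tissues passed the test of the interaction itself (edgeR quasi-likelihood, adjusted p below 0.05); each value is the log2 difference in the SI minus that in the colon. For PDGFRahi FB against Fgfr2+ FB, the difference for Itga8 is -5.72 ± 1.13, adjusted p = 0.00853: Fgfr2+ FB are high in Itga8 in the SI and low in the colon. For Itgb3 the value is -3.09 ± 0.74, adjusted p = 0.0463, and its call ends with length-scaled counts (-3.14, adjusted p = 0.0735) and without any of 11 of the 12 libraries (SI PDGFRahi FB replicate 2 is the exception), with adjusted p of 0.0659 without SI Fgfr2+ FB replicate 3 to 0.159 without SI PDGFRahi FB replicate 3.

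For pericytes against FB, the value for Itga8 is -4.22 ± 0.90, adjusted p = 0.00714 (length-scaled counts end this call: -3.04, adjusted p = 0.0584), with colon pericytes far above colon FB and SI pericytes within the SI FB range. The SMC markers Myh11, Acta2 and Tagln were called with smaller values in this interaction too, and whether SMC RNA contributes to Itga8 was not tested. Itga9 gives 1.54 ± 0.43, adjusted p = 0.0396, and 0.82 without SI pericyte replicate 2 (adjusted p = 0.224). Its call also ends with a replicate block (adjusted p = 0.0572) and without SI CD34+ FB replicate 1, 2 or 3, SI PDGFRahi FB replicate 1 or 3, SI Fgfr2+ FB replicate 2, colon pericyte replicate 2 or 3, colon CD81+ FB replicate 2, colon CD90+ FB replicate 1 or colon PDGFRahi FB replicate 1 or 3. Itga3 gives -11.31 ± 2.93, adjusted p = 0.029; all SI pericyte libraries are at 0, so this fitted value depends on the prior count and is no bound. Its call ends without colon pericyte replicate 3 (-10.06, adjusted p = 0.057), SI pericyte replicate 1 (-11.34, adjusted p = 0.0681) or 2 (-11.32, adjusted p = 0.066) or SI Fgfr2+ FB replicate 2 (-9.98, adjusted p = 0.999998). Lama1 gives -5.49 ± 1.25, adjusted p = 0.0124, and 0.31, adjusted p = 0.941 without colon pericyte replicate 1, the library that holds nearly all colon pericyte Lama1 (9.24, 0 and 0.0718 CPM).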

How the results depend on the processing

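Of the counts of members called, those for pericytes against FB (15 in the SI, 15 in the colon), SMC against FB (10), SI PDGFRahi FB against Fgfr2+ FB (6) and PDGFRahi FB between tissues (3) moved by no more than 1.5 times under DESeq2, RLE factors, both other filters, both other fold thresholds, length-scaled counts and a fit of only the populations compared. With that last fit, the count is 5 for SMC against pericytes (13 otherwise), 3 for colon PDGFRahi FB against Fgfr2+ FB (0), 3 for SI CD34+ FB against Fgfr2+ FB (1), 0 for CD81+ FB against CD90+ FB (2), 4 for Fgfr2+ FB between tissues (2), 0 for pericytes between tissues (4), where it called 0 genes in all, and 4 for the FB interaction (2). DESeq2 called 2, 2, 4, 7 and 5 for the colon PDGFRahi FB, SI CD34+ FB, Fgfr2+ FB tissue, pericyte tissue and FB interaction results, and 7 for the pericyte interaction (4). A fold threshold of 1, none, or no count filter each gave 1 for colon PDGFRahi FB and 2 for SI CD34+ FB. No filter gave 4 for the FB interaction, and length-scaled counts gave 1 there and 1 for CD81+ FB. The cause was not tested.

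Over all genes, DESeq2 called 2955 (from 1784) for SMC against pericytes, 919 (from 443) and 479 (from 234) for PDGFRahi FB against Fgfr2+ FB in SI and colon, 598 (from 213) for SI CD34+ FB, 382 (from 109) for CD81+ FB, 402 (from 168), 820 (from 255) and 2410 (from 1000) for PDGFRahi FB, Fgfr2+ FB and pericytes between tissues, and 371 (from 116) and 1909 (from 659) for the interactions. The fit of only the populations compared called 393 (from 1784) for SMC against pericytes, 477 (from 234) for colon PDGFRahi FB, 395 (from 213) for SI CD34+ FB, 34 (from 109) for CD81+ FB, 406 (from 168) for PDGFRahi FB and 0 (from 1000) for pericytes between tissues, and 201 (from 116) for the FB interaction. For CD81+ FB, no filter gave 167 (from 109) and length-scaled counts 67 (from 109).

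With each library left out in turn (leave-one-out), the members called ran from 12 to 17 for SI pericytes against FB, 11 to 17 in the colon, 8 to 12 for SMC against FB, 10 to 14 for SMC against pericytes, 4 to 5 and 0 to 1 for PDGFRahi FB against Fgfr2+ FB in SI and colon, 1 to 1 for CD34+ FB, 0 to 2 for CD81+ FB, 1 to 2, 0 to 2 and 1 to 6 for PDGFRahi FB, Fgfr2+ FB and pericytes between tissues, and 1 to 2 and 2 to 5 for the interactions. Over all genes, calls ran from 2115 to 3476 (full fit 2909) for SI pericytes against FB and 2234 to 2825 (2807) in the colon. SMC gave 530 to 919 (907) against FB and 1269 to 2480 (1784) against pericytes. The FB comparisons gave, in the same order, 299 to 358 (443), 129 to 162 (234), 126 to 180 (213) and 44 to 155 (109). Those between tissues gave 108 to 122 (168), 163 to 217 (255) and 626 to 1710 (1000). The interactions gave 63 to 97 (116) and 460 to 1321 (659). Of 843 left-out values of called members, 1 reversed: Lama1 in the pericyte interaction, 0.31, adjusted p = 0.941 without colon pericyte replicate 1, where the other left-out libraries give down to -6.19; the cause was not tested. Calls ended in 99 and held in 743. RLE factors and no count filter ended no call; the stricter filter left Lama3 in colon pericytes untested. The fit of only the populations compared ended those of Itga4, Itga5, Itga7, Itga10, Itgb3, Itgb5 and Lamb2 in SMC against pericytes, where Itga3 was not tested, of Lama1 and Lamb2 in CD81+ FB, and of Itga3, Itga4 and Itga8 in pericytes between tissues. DESeq2 ended that of Lama3 in colon pericytes, and the replicate block those of Itgb7 in SI pericytes, Itgb4 and Lama3 in colon pericytes and Itga9 in the pericyte interaction. Length-scaled counts ended those of Lamb2 in SI pericytes, Itgb4 in colon pericytes, Itga10, Itga3 and Lamb2 in SMC against pericytes, Lamb2 in CD81+ FB, Itga8 in pericytes between tissues and in the pericyte interaction, and Itgb3 in the FB interaction. All 370 shares per length stayed within 1 SD when computed from estimated counts over effective length. TPM is itself that quotient, rescaled, so the 2 had to match and this is no check of the shares.

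The labels do not say that replicate numbers pair libraries. Same-numbered libraries' deviations correlate at 0.00763 on average, and 23 of 30 correlate best with their own number. With a replicate block, 14 and 13 members are called for pericytes against FB in SI and colon, 10 and 13 for SMC against FB and pericytes, 6 and 0 for PDGFRahi FB against Fgfr2+ FB, 1 for CD34+ FB, 2 for CD81+ FB, 3, 2 and 4 between tissues, and 2 and 3 for the interactions. Where the member count changed, the counts over all genes fell too. The block called 1297 higher and 1171 lower for SI pericytes against FB (1665 and 1244 without it). In the colon it called 1261 and 1101 (1630 and 1177), and for the pericyte interaction 275 and 225 (357 and 302). At the lowest depth, 2245052 estimated counts, 3 counts correspond to 1.04 CPM, below which levels are not resolved.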
